A study of Malus domestica with 18 samples.

Results

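The early response of apple skin to bagging was described from the 6 RNA-seq libraries taken 30 days after flowering (DAF30), out of 18 libraries in the whole series. The comparison sets T1, fruit that had spent 10 days in a bag, against CK1, fruit of the same age that was never bagged. The members were chosen by these labels and not by any measured value. All fruit came from "Golden Delicious" apple trees (Malus domestica) and carried no other treatment. T fruit was enclosed at DAF20 in paper bags of 2 layers that let no light through, and CK fruit stayed exposed. Each sample pooled the peel of 3 fruits, and each group held 3 libraries from separate trees. Whether CK1 and T1 fruit hung on the same trees is not stated, so that p-values measure the spread between these samples only. The other 12 libraries, T2 and CK2 at DAF60 and T3 and CK3 at DAF150, serve here to estimate the spread and to follow the DAF30 genes later.

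The skin of a young apple is an epidermis covered by a cuticle of cutin and wax, with chlorophyll-bearing cells below it. A bag keeps out light and also shields this surface from rain, wind, dew and abrupt changes of temperature. In "Golden Delicious" the exposed skin readily cracks and turns russet, a rough brown cover in which a corky periderm replaces the epidermis, and the young fruit stage is the sensitive one. Plant surface cells answer touch, wounding, cold and microbes through calcium influx, an oxidative burst, protein kinases and the hormone jasmonate. Many of the regulators in these pathways are genes whose transcripts rise and decay quickly.

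Levels were deposited as FPKM, fragments per length of gene and size of library, and were compared as log2(FPKM + 1). The deposited table held 2856 genes, every one of which had been selected beforehand for a difference between T and CK over all stages. It is therefore a selected set, in which the mean FPKM over all T libraries was below that over all CK libraries for 2246 genes and above it for 610, and a gene that responded only at DAF30 could be missing from it. A minimum of 1 FPKM in 3 or more of the 18 libraries left 1399 genes for testing, and 1457 fell short of it. FPKM values do not carry the read counts behind them, so no counting interval is given. The 3 CK1 libraries correlated with one another at 0.936 to 0.955 and the 3 T1 libraries at 0.924 to 0.955 (Pearson's r across the 1399 genes), and pairs across the groups at 0.878 to 0.938. The summed FPKM of the table was 26747 to 30988 in CK1 and 22634 to 24070 in T1, so the groups did not overlap in this sum. Library CK1-1 stood apart in the results below, since it held the highest CK1 value of 101 of the 173 genes that were called lower. Library T1-2 likewise held the lowest T1 value of 101 of those 173 genes. Both libraries were also extreme over all 1399 genes tested. The median log2(FPKM + 1) was 1.824 in CK1-1, against 1.491 in CK1-2 and 1.57 in CK1-3. It was 1.245 in T1-2, against 1.47 in T1-1 and 1.395 in T1-3. How often each library held the extreme value over all genes was not computed, so the counts of 101 are not particular to the falls.

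Of the marker lists, those of green flesh and epidermis had the largest sums in both groups. The lists hold only genes that passed the authors' selection and differ in size, so the sums cannot establish the tissue. The 28 epidermis genes of the table summed to 127 to 281 FPKM in CK1, against 158 to 180 FPKM in T1, and the 17 genes of green flesh to 3060 to 3723 FPKM and 1743 to 4961 FPKM. The marker genes of other cell types that the table holds were low. The 10 vascular genes summed to 2.8 to 10.1 FPKM in CK1, against 4.3 to 6.1 FPKM in T1, the 11 cork genes to 6.6 to 15.7 FPKM and 9.8 to 24.0 FPKM, and the 5 seed genes to 0.1 to 2.0 FPKM and 0.3 to 0.5 FPKM. The CK1 and T1 libraries overlapped for each of these sums. The cork list also took in a P450 86A8 gene (MD01G1064900), although of the P450 86 genes only 86A1 and 86B1 were meant for it. This gene alone had 4.8, 7.25 and 9.27 FPKM in CK1 and 7.95, 6.88 and 9.26 FPKM in T1. The cork sums are therefore not those of cork genes alone. In a bulk sample, fewer cells of a type and less RNA per cell cannot be told apart.

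After 10 days in the bag, most of the genes that changed were lower in bagged skin. Among those with a name were regulators of jasmonate, calcium and cold responses, while genes of photosynthesis were not called. Of 1399 genes tested, 202 (14.4%) had an adjusted p no larger than 0.05 and are termed called (limma, Benjamini-Hochberg over all 1399). Of these, 173 were lower (12.4%) and 29 were higher in T1 (2.07%). A fold of at least 2 on the log2(FPKM + 1) scale was reached by 166 of them (11.9%), 152 lower (10.9%) and 14 higher (1.00%). The median lower gene had 3.55 times more FPKM in CK1 than in T1, and the median higher gene had 2.42 times more in T1. The CK1 libraries all lay above the T1 libraries for 320 genes (22.9%) and all below them for 90 genes (6.43%). Over all 1399 genes the median log2 fold change was -0.12, and 385 (27.5%) had an unadjusted p under 0.05.

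The balance of falls and rises depended on how the libraries were scaled against each other. Centring each library on its median moved the median fold change to 0.14 and gave 119 lower and 44 higher genes, or 73.0% and 27.0% of the calls in place of 85.6% and 14.4%. Quantile normalization, which moved that median to 0.026, gave 48 lower and 54 higher genes, or 47.1% and 52.9%. All 202 genes kept the sign of their change under both scalings, and 28 of the 29 rises and 48 of the 173 falls were still called under quantile normalization. Median centring moved every fold change upward by the same amount, which was less than the smallest called fall of -0.616. It could therefore turn no sign. Both scalings were computed on genes selected for a difference. They would take away a fall that most of these genes share, and equally an offset between libraries. Which of these was present here was not tested. The fits without a library, cited for single genes below, kept the deposited scale.

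**Figure D1:**
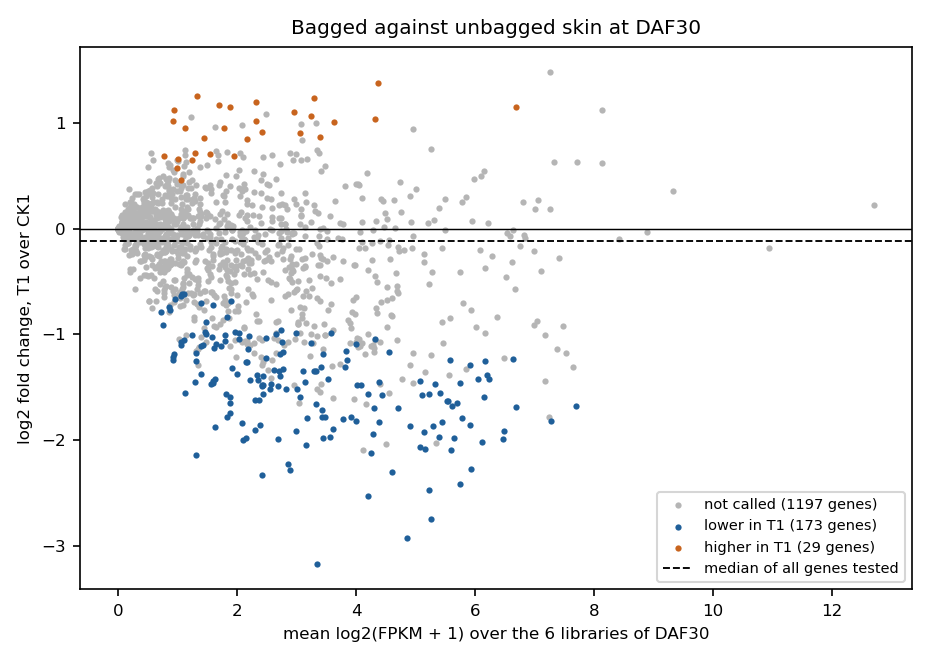
Log2 fold change of T1 over CK1 against the mean log2(FPKM + 1) of the 6 DAF30 libraries, 1 point per gene, for the 1399 genes tested. The 173 genes called lower (blue) reach -3.18, the 29 called higher (orange) reach 1.38, and the dashed line marks the median of -0.12.

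The largest fall was that of a cytochrome P450 94C1-like gene (MD11G1171100, chromosome 11, 18610980 to 18612581, GDDH13 v1.1 build), whose Arabidopsis namesake oxidises and thereby inactivates the active jasmonate conjugate. Its level was 71.21, 26.62 and 13.05 FPKM in the 3 CK1 libraries and 5.65, 2.12 and 0.83 FPKM in T1. The groups did not overlap, although CK1 itself ranged widely (log2 fold change -3.18, SE 0.60, adjusted p = 0.0047). A pair of neighbouring genes for cucumber peeling cupredoxin-like proteins, small blue copper proteins, followed. MD17G1210900 (chromosome 17, 25576685 to 25577519, overlapping the model of another gene in the table) had 91.84, 68.77 and 76.45 FPKM in CK1 and 10.37, 6.57 and 12.29 FPKM in T1 (log2 fold change -2.93, SE 0.57, adjusted p = 0.0054). MD17G1211200 (chromosome 17, 25621979 to 25623047) had 125.1, 76.46 and 98.23 FPKM against 14.4, 8.96 and 19.95 FPKM (log2 fold change -2.75). For both genes the gap between the groups was wider than the range within either group. Within T1, MD17G1211200 still ranged from 8.96 to 19.95 FPKM.

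Genes for 2 lipid enzymes were also among the leading falls. The list of lipid transfer and metabolism as a whole had 3 of 59 members lower and 3 higher, with a median of 0.11. That is 5.1% each way, against 12.4% lower and 2.07% higher of all genes. The gene for a chloroplast omega-3 fatty acid desaturase (MD07G1223100, chromosome 7, 30008443 to 30011490), which makes the trienoic fatty acid that jasmonate is built from, had 195.6, 58.83 and 57.23 FPKM in CK1 and 16.87, 15.71 and 12.32 FPKM in T1 (log2 fold change -2.48, SE 0.61, adjusted p = 0.013). Its call was lost without CK1-1 (adjusted p = 0.0784). A squalene monooxygenase-like gene (MD07G1041600), for an enzyme of sterol and triterpenoid synthesis, had 73.11, 23.37 and 45.95 FPKM in CK1 and 9.24, 1.39 and 17.2 FPKM in T1. Its log2 fold change was -2.52, and the call was lost without any one of CK1-1, CK1-3, T1-1 or T1-2 (adjusted p up to 0.174). A delta(8)-fatty-acid desaturase gene (MD07G1129700), which acts on sphingolipids, was not among the leading falls and lay at 3.58, 2.29 and 3.93 FPKM against 0.76, 0.54 and 0.57 FPKM, and its call held whichever library was left out. It was also called under quantile normalization, where MD07G1223100 and MD07G1041600 were not.

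The gene with the smallest adjusted p among the described ones encodes a lectin receptor kinase of the L type, S.4-like (MD12G1147700, chromosome 12, 22710408 to 22712495), a cell surface receptor. It had 15.45, 22.15 and 10.31 FPKM in CK1 and 3.4, 1.75 and 2.11 FPKM in T1 (log2 fold change -2.28, SE 0.30, adjusted p = 0.00052). Only this gene and the uncharacterized MD02G1188600 changed by a fold of 2 or more with an adjusted p no larger than 0.001, which makes 2 genes or 0.143%. MD02G1188600 was named after its values were seen and had 6.85, 3.9 and 4.31 FPKM in CK1 and 0.96, 0.61 and 0.3 FPKM in T1 (log2 fold change -1.88, adjusted p = 0.00013). An exocyst subunit gene (EXO70A1-like, MD12G1133300), whose protein helps to tether secretory vesicles to the plasma membrane, had 95.77, 200.6 and 121.6 FPKM against 39.24, 19.48 and 24.88 FPKM (log2 fold change -2.27, adjusted p = 0.0079). This exocyst gene was not called under quantile normalization.

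Other leading falls were spread over proteins of less certain role. LURP-one-related 8 (MD04G1180200) had 133.9, 59.01 and 123.7 FPKM in CK1 and 25.46, 16.74 and 26.52 FPKM in T1. CBSX5-like (MD10G1296300) had 18.25, 9.21 and 18.81 FPKM against 3.89, 1.88 and 1.69 FPKM, and embryonic protein DC-8-like (MD09G1267600) had 12.18, 3.16 and 1.59 FPKM against 0.28, 0.2 and 0.08 FPKM. Among genes described as uncharacterized, MD07G1233600 had 96.4, 54.39 and 72.74 FPKM in CK1 and 20.02, 17.54 and 12.4 FPKM in T1, and MD01G1110900 had 213.8, 149.6 and 170.8 FPKM against 47.83, 46.34 and 37.29 FPKM. The groups were separate for each of these 5 genes, with log2 fold changes between -2.23 and -1.99, and each stayed called whichever library was left out. Under quantile normalization MD07G1233600 was not called.

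**Figure D2:**
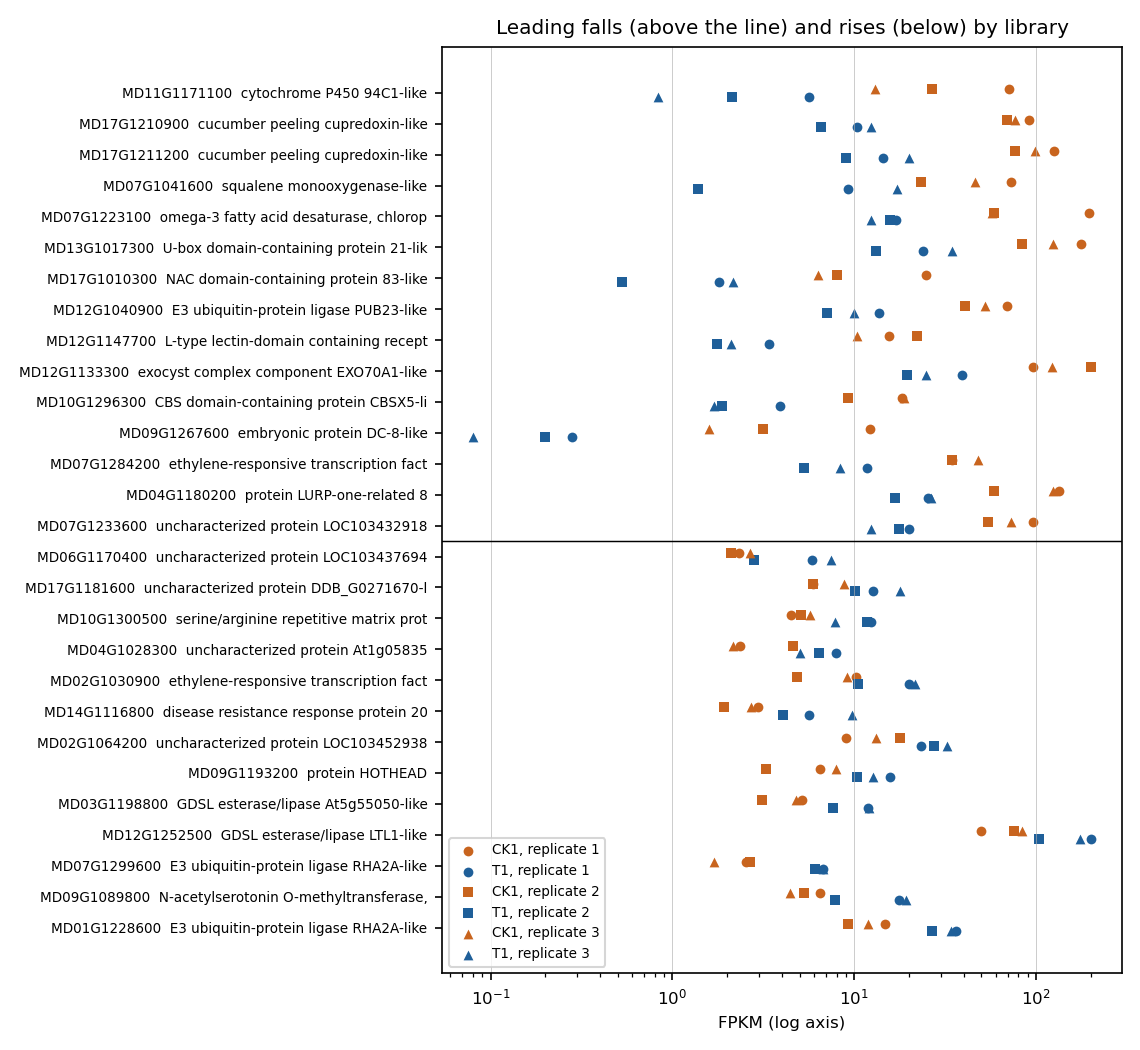
FPKM on a log axis in each CK1 library (orange) and each T1 library (blue) for the 15 leading falls above the line and the 13 leading rises below it, with 1 marker shape per replicate number. CK1 and T1 do not overlap for any of these genes, since the rule that named them asked for that, and the gap is wider for the falls than for the rises.

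The jasmonate pathway held several of the strongest falls. This list was added after its members' values were seen, so its count describes these genes and is no independent evidence. Of 20 members tested, 7 were lower (against 12.4% of all genes), none was higher, and the median log2 fold change was -1.30. All 20 fold changes were below 0, and 11 members had CK1 libraries wholly above T1 (against 22.9% of all genes). The falls included TIFY genes, which encode the JAZ repressors that jasmonate signalling itself induces and destroys. TIFY 9 (MD13G1127100) had 274.5, 90.03 and 106.8 FPKM in CK1 and 24.05, 46.85 and 33.22 FPKM in T1 (log2 fold change -2.01, SE 0.54, adjusted p = 0.018). TIFY 10B-like (MD17G1164400) had 33.0, 10.14 and 8.81 FPKM against 2.56, 2.59 and 4.41 FPKM. The members called after the 4 largest, which include both TIFY 5A genes and MYC2, were named after their values were seen. TIFY 5A-like (MD05G1282100) had 40.61, 11.6 and 13.83 FPKM against 8.84, 3.24 and 3.59 FPKM, and TIFY 5A (MD10G1260700) had 27.52, 8.6 and 8.09 FPKM against 5.63, 3.64 and 2.46 FPKM.

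The transcription factor through which jasmonate acts was lower as well. A MYC2-like gene (MD14G1137200) had 13.62, 8.97 and 7.71 FPKM in CK1 and 3.68, 2.75 and 2.29 FPKM in T1 (log2 fold change -1.49, adjusted p = 0.0058). A second P450 94C1-like gene (MD03G1140700) had 66.38, 15.51 and 10.43 FPKM against 4.26, 9.25 and 2.91 FPKM (log2 fold change -1.97), with a call that was lost without T1-3 (adjusted p = 0.0601). Not every gene of jasmonate synthesis was called. Allene oxide cyclase 4 (MD09G1084600, named after its values were seen) had 92.07, 24.85 and 17.9 FPKM against 5.91, 16.9 and 3.69 FPKM (adjusted p = 0.051), and a 13S-lipoxygenase 3-1 (MD09G1180900) had 503.9, 126.1 and 208.9 FPKM against 101.9, 74.34 and 85.77 FPKM (adjusted p = 0.10).

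In all 7 called jasmonate genes the highest CK1 value came from CK1-1, in 6 of them by more than 2 times over the next library. Without CK1-1, 3 members were called, the P450 94C1-like pair and MYC2, while the TIFY genes were not (adjusted p = 0.113 for TIFY 9, 0.0764 for TIFY 10B, 0.0851 for MD05G1282100 and 0.0506 for MD10G1260700). Of all 1399 genes, 78 were called lower in that fit. The call of TIFY 9 was also lost without T1-1 or T1-3, that of MD05G1282100 without T1-2 or T1-3 and that of MD10G1260700 without T1-3. Both other CK1 libraries still lay above all T1 libraries for each of the 7 genes. Of the 7, only MD11G1171100 and MYC2 were called under quantile normalization. What sets CK1-1 apart was not tested.

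Cold and drought regulators were also lower, on a list added after values were seen. Of 12 members, 5 were lower (41.7%, against 12.4% of all genes) and none was higher, with a median of -0.51. The 5 are 3 DREB genes, a ZAT12-like zinc finger gene and a DEHYDRATION-INDUCED 19 homolog (MD13G1160000, named after its values were seen). DREB proteins, also called CBF, are the factors that switch on cold acclimation genes. CBF3 (MD06G1072300) had 22.06, 7.97 and 27.73 FPKM in CK1 and 5.7, 1.9 and 3.38 FPKM in T1 (log2 fold change -2.04, SE 0.52, adjusted p = 0.014). The neighbouring DREB 1E-like gene (MD06G1072200) had 90.49, 45.52 and 132.9 FPKM against 33.67, 14.03 and 17.32 FPKM, and DREB 1B (MD01G1196100) had 56.45, 34.66 and 89.7 FPKM against 23.3, 11.14 and 11.99 FPKM. CK1-3 was highest in all 5 genes and T1-2 lowest in all 5. Without any one of CK1-1, CK1-3 or T1-2 none of the 5 was called (adjusted p up to 0.152 over all single libraries left out). Under quantile normalization none of the 5 was called either.

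Dehydrins, which such factors are known to switch on, were not called. Dehydrin 6 (MD15G1253900), a protective protein made in drying or chilled tissue, had 950.1, 433.5 and 447.7 FPKM in CK1 and 878.7, 632.6 and 699.4 FPKM in T1 (log2 fold change 0.36, adjusted p = 0.78). The groups overlapped for this gene.

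Among transcription factors in general, 27 of 100 were lower (27.0%, against 12.4% of all genes) and 2 were higher, with a median of -0.32. In the subset of WRKY, NAC and ethylene response factors, a list added after values were seen, 10 of 39 were lower and 1 was higher. NAC 83-like (MD17G1010300) had 24.67, 8.07 and 6.35 FPKM in CK1 and 1.81, 0.53 and 2.16 FPKM in T1 (log2 fold change -2.33, SE 0.38, adjusted p = 0.0026). WRKY 53 (MD14G1123000), in Arabidopsis a factor of defence and senescence, had 88.55, 60.36 and 57.69 FPKM against 15.79, 8.61 and 26.17 FPKM (log2 fold change -2.07), and its call was lost without CK1-1 or T1-2 (adjusted p up to 0.0642). CRF4 (MD07G1284200), named for cytokinin response, had 34.56, 34.58 and 47.76 FPKM against 11.8, 5.32 and 8.35 FPKM. ERF109-like (MD10G1094700), which wounding and oxidants induce in Arabidopsis, had 63.43, 82.17 and 76.02 FPKM against 32.63, 17.14 and 12.95 FPKM. The last 2 genes were even across CK1 and were called whichever library was left out. Neither was called under quantile normalization, nor was WRKY 53.

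Some factors of other families were lower too. bHLH66-like (MD02G1009200) had 161.6, 202.3 and 159.7 FPKM in CK1 and 68.09, 32.98 and 41.11 FPKM in T1 (log2 fold change -1.92, adjusted p = 0.015), and its call was lost without T1-2 or T1-3 (adjusted p up to 0.0652). A Myb-like activator (MD08G1107400) had 131.3, 107.2 and 127.7 FPKM against 53.08, 39.54 and 42.48 FPKM (log2 fold change -1.43). Its call was lost without CK1-1 (adjusted p = 0.0506), and also under median centring and quantile normalization. The bHLH66-like gene was not called under quantile normalization either. ZAT12-like (MD11G1113200), a zinc finger gene of general stress, lay near the detection limit at 1.29, 1.79 and 2.78 FPKM against 0.57, 0 and 0.24 FPKM, and its model overlaps that of MD11G1113500, which was lower as well. The 2 rises in the list were WIN1-like, described below, and basic leucine zipper 43-like (MD13G1053800), at 0.56, 1.0 and 3.88 FPKM against 3.77, 3.03 and 7.72 FPKM. The groups overlapped for the latter, and its call was lost in 13 of the 18 fits that left out 1 library (adjusted p up to 0.257). Without CK1-1, 11 of the 100 transcription factors were called lower, where 78 of all 1399 genes were, and without T1-2 also 11, where 105 of all genes were.

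Genes of calcium signalling, the oxidative burst and protein phosphatases were lower too, on a list added after values were seen. Of 30 members, 11 were lower (36.7%, against 12.4% of all genes) and none was higher. CK1 libraries lay wholly above T1 for 23 members (against 22.9% of all genes), and the median was -1.06. Protein phosphatase 2C 25 (MD01G1154600), whose Arabidopsis namesake switches off MAP kinases, had 58.06, 70.03 and 75.79 FPKM in CK1 and 25.82, 13.0 and 14.88 FPKM in T1 (log2 fold change -1.92, SE 0.47, adjusted p = 0.013). Its call was lost without T1-2 (adjusted p = 0.0516). Protein phosphatase 2C 23 (MD03G1094800) had 76.05, 79.94 and 105.6 FPKM against 34.74, 19.2 and 27.1 FPKM (log2 fold change -1.68, adjusted p = 0.0056) and was called whichever library was left out. Neither phosphatase was called under quantile normalization. The oxidase that makes the burst, respiratory burst oxidase homolog D-like (MD13G1134500), had 106.6, 83.89 and 60.21 FPKM against 33.92, 13.7 and 36.06 FPKM (log2 fold change -1.63, adjusted p = 0.038). The call of this oxidase was lost without CK1-1, CK1-2, T1-1, T1-2 or T3-1 (adjusted p up to 0.173).

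Of the calcium pumps on the list, which return calcium out of the cell, both genes for calcium-transporting ATPase 13 fell, from low levels, and an ATPase 2 and an ATPase 9 gene were not called. ATPase 13 had 5.92, 3.26 and 3.26 FPKM against 1.36, 0.27 and 1.0 FPKM for MD16G1201800 and 2.68, 2.33 and 0.98 FPKM against 0.24, 0.13 and 0.48 FPKM for MD15G1425900, whose model overlaps another of the table. Without CK1-1, MD16G1201800 had an adjusted p of 0.0527, and 5 members of the list were called, where 78 of all 1399 genes were called lower. Without T1-2, 6 were, where 105 of all genes were.

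Receptor and other protein kinases were called at about the background rate, with 13 of 94 lower (13.8%, against 12.4%) and none higher. Beside the lectin kinase above, a receptor-like kinase At1g11050 gene (MD15G1343400) had 39.33, 41.81 and 34.05 FPKM in CK1 and 12.37, 7.85 and 10.51 FPKM in T1 (log2 fold change -1.82, adjusted p = 0.0082). An LRR receptor kinase RKF3-like gene (MD11G1293500) had 19.56, 21.94 and 11.04 FPKM against 5.64, 4.51 and 3.96 FPKM (log2 fold change -1.66, adjusted p = 0.0042). Both were called whichever library was left out, but under quantile normalization only the RKF3-like gene was.

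Of 10 plant U-box ligases tested, 5 were lower on a list added after values were seen, against 12.4% of all genes, and the median was -1.05. These ubiquitin ligases include PUB23, which in Arabidopsis dampens the immune response it is induced by. PUB23-like MD12G1040900 (chromosome 12, 4528126 to 4529346) had 68.84, 40.57 and 52.39 FPKM in CK1 and 13.74, 7.08 and 9.97 FPKM in T1 (log2 fold change -2.30, SE 0.36, adjusted p = 0.0018). Its counterpart MD14G1040300 on chromosome 14 had 80.38, 62.42 and 106.8 FPKM against 34.06, 17.04 and 18.84 FPKM (log2 fold change -1.82), with a call lost without T1-2 or T1-3 (adjusted p up to 0.0574). U-box 21-like (MD13G1017300) had 176.3, 83.91 and 124.0 FPKM against 23.87, 13.11 and 34.58 FPKM (log2 fold change -2.41), called except without CK1-1 (adjusted p = 0.0506). U-box 29-like (MD05G1020500) had 99.55, 83.71 and 115.8 FPKM against 28.12, 16.68 and 30.3 FPKM, called except without T1-2 (adjusted p = 0.0512). Without CK1-1, 3 members were called, where 78 of all 1399 genes were called lower. Without T1-2, 2 were, where 105 of all genes were. Of the genes named here, only MD12G1040900 was called under quantile normalization.

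Sugar metabolism was the other list with a high share of falls. Of 18 members, 6 were lower (33.3%, against 12.4% of all genes) and none was higher, at a median of -0.12. The members that fell do not make starch. They include 3 genes for galactinol-sucrose galactosyltransferase 6, an enzyme that builds raffinose sugars. MD02G1025500 had 125.8, 98.52 and 98.76 FPKM in CK1 and 32.64, 55.81 and 33.0 FPKM in T1 (log2 fold change -1.43), and MD02G1026300 had 106.2, 78.04 and 83.36 FPKM against 27.22, 43.36 and 26.47 FPKM (log2 fold change -1.46). The model of MD02G1026200 lies within that of MD02G1026300 and may share its reads. A neutral invertase (MD13G1148300), which splits sucrose, had 77.73, 49.75 and 51.89 FPKM against 24.15, 19.81 and 14.21 FPKM (log2 fold change -1.58, adjusted p = 0.010). The other falls were a trehalose-phosphate phosphatase (MD11G1196000, 11.25, 4.84 and 10.41 FPKM against 3.3, 0.92 and 2.8 FPKM) and a sorbitol dehydrogenase-like gene (MD01G1195400, which overlaps other models and was named after its values were seen, 3.96, 1.61 and 1.93 FPKM against 0.77, 0.61 and 0.66 FPKM). Sorbitol is the main sugar that apple leaves send to the fruit. Without CK1-1, 3 of the 6 were called, and MD02G1025500 (adjusted p = 0.0569), the invertase (0.0505) and the phosphatase (0.126) were not. MD02G1025500 was also not called without T1-1, nor the phosphatase without CK1-3, T1-2 or T1-3 (adjusted p up to 0.140). Of the 6, only the low MD01G1195400 was called under quantile normalization.

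Genes of the phenolic pathways were called lower at rates on either side of the 12.4% of all genes, and none was called higher. Of 18 general phenylpropanoid and monolignol genes, 1 was lower (5.56%), the entry enzyme phenylalanine ammonia-lyase 1-like (MD04G1096200, chromosome 4, 17723731 to 17727188). It had 37.59, 38.59 and 35.34 FPKM in CK1 and 12.66, 9.14 and 6.06 FPKM in T1 (log2 fold change -1.94, SE 0.59, adjusted p = 0.037), with no overlap, though the call was lost without any 1 of the 6 DAF30 libraries (adjusted p up to 0.133). The more abundant members lay level. A shikimate O-hydroxycinnamoyltransferase-like gene (MD17G1225100) had 69.76, 107.6 and 128.1 FPKM against 100.7, 105.4 and 88.59 FPKM, and a caffeoylshikimate esterase-like gene (MD07G1174800) had 105.2, 95.88 and 174.7 FPKM against 137.8, 153.6 and 146.9 FPKM. Of 18 peroxidases and laccases, 1 was lower, peroxidase 41 (MD13G1086200), at 2.88, 3.55 and 2.2 FPKM against 1.01, 0.89 and 0.48 FPKM. Of 13 flavonoid genes, 2 were lower (15.4%), chalcone synthase (MD04G1003300, 52.92, 31.89 and 28.25 FPKM against 10.48, 17.01 and 8.46 FPKM) and polyketide synthase 5 (MD04G1003000, 113.8, 95.77 and 121.5 FPKM against 43.79, 54.7 and 39.42 FPKM). The models of these 2 overlap, so their falls are not separate evidence, and both calls were lost without CK1-1 (adjusted p = 0.118 and 0.0819), T1-1 or T1-3, and the second also without CK1-3 (adjusted p up to 0.0897). Neither of these 2 genes nor MD04G1096200 was called under quantile normalization, while peroxidase 41 was.

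Some abundant genes outside these groups also fell. COBRA-like 7 (MD13G1159600), a membrane-anchored protein of the wall, had 292.8, 408.6 and 418.3 FPKM in CK1 and 135.1, 109.9 and 102.1 FPKM in T1 (log2 fold change -1.67, SE 0.39, adjusted p = 0.010). Amino acid permease 3-like (MD15G1343900, named after its values were seen) had 305.3, 300.9 and 264.4 FPKM against 89.4, 94.49 and 64.28 FPKM (log2 fold change -1.81, adjusted p = 0.022), with a call lost without CK1-1, T1-1 or T1-3 (adjusted p up to 0.0839). HSPRO2 (MD07G1215700), a basal resistance protein in Arabidopsis, had 125.2, 186.6 and 261.8 FPKM against 53.03, 71.08 and 47.18 FPKM, and its call was lost without CK1-3 or T1-3 (adjusted p up to 0.0599). A pectinesterase gene (MD11G1307500), for an enzyme that alters wall pectin, had 9.44, 8.11 and 7.98 FPKM against 1.65, 0.76 and 2.48 FPKM and was called whichever library was left out. Neither COBRA-like 7 nor HSPRO2 was called under quantile normalization, while the other 2 genes were.

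The 29 rises were smaller, at most 1.38 on the log2 scale. The largest encodes an RHA2A-like ubiquitin ligase, whose Arabidopsis namesake acts in abscisic acid signalling. MD01G1228600 (chromosome 1, 31825319 to 31825876) had 14.69, 9.22 and 11.87 FPKM in CK1 and 36.04, 26.87 and 34.23 FPKM in T1 (log2 fold change 1.38, SE 0.27, adjusted p = 0.0054). Its counterpart MD07G1299600 on chromosome 7 had 2.53, 2.68 and 1.7 FPKM against 6.74, 6.11 and 6.72 FPKM (log2 fold change 1.20, SE 0.25, adjusted p = 0.0062). Both were even within each group, and both calls held in all 26 other fits that used more than the DAF30 libraries. Small auxin-induced genes, a list added after values were seen, had 2 of 9 members higher (22.2%, against 2.07%) and none lower. Auxin-induced 15A-like (MD05G1053200) rose from 1.05, 0.39 and 0.51 FPKM to 3.2, 2.04 and 3.57 FPKM (log2 fold change 1.25), and SAUR50 (MD10G1061300) from 1.25, 0.93 and 0.9 FPKM to 2.75, 1.86 and 3.57 FPKM (log2 fold change 0.86). The call of SAUR50 was lost without CK1-3, T1-1 or T1-3 (adjusted p up to 0.0897).

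A few rises were in genes named for the cuticle or in the GDSL family, and what the GDSL genes do in apple was not tested. HOTHEAD (MD09G1193200), which in Arabidopsis helps to make the diacids of cutin, had 6.44, 3.27 and 7.93 FPKM in CK1 and 15.67, 10.34 and 12.73 FPKM in T1 (log2 fold change 1.06, SE 0.28, adjusted p = 0.018), with a call lost without CK1-2 or T1-1 (adjusted p up to 0.0752). WIN1-like (MD02G1030900), an ethylene response factor that switches on cuticle genes in Arabidopsis, had 10.26, 4.82 and 9.15 FPKM against 19.94, 10.5 and 21.59 FPKM (log2 fold change 1.01). Its adjusted p lay just under the threshold, and its call was lost in 15 of the 18 fits that left out 1 library (adjusted p up to 0.185). Of 16 GDSL esterases and lipases, 2 were higher (12.5%, against 2.07% of all genes) and none was lower (against 12.4%). This family includes cutin synthases. At5g55050-like (MD03G1198800) had 5.18, 3.09 and 4.76 FPKM against 11.84, 7.62 and 12.05 FPKM (2.42 times higher in mean FPKM, adjusted p = 0.0078) and was called whichever library was left out. A namesake on the list, MD11G1214800, went the other way without being called (log2 fold change -1.52, adjusted p = 0.052). LTL1-like (MD12G1252500) had 49.92, 75.68 and 83.95 FPKM against 200.3, 103.5 and 173.6 FPKM (log2 fold change 1.16, adjusted p = 0.046), and its call was lost in 14 of those 18 fits (adjusted p up to 0.203).

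These rises did not extend to the suberin, cutin and wax list as a whole. Of its 25 members, 1 was higher (4.0%, against 2.07% of all genes), which is HOTHEAD. The 2 that were lower (8.0%, against 12.4%) are the P450 94C1-like genes named for jasmonate above. The 20 epidermis markers tested had the same 1 rise and a median of 0.25. The 10 tested members of the cork list had log2 fold changes between 0.11 and 0.48 with none called by limma (0 at an unadjusted p under 0.05). They include P450 86A1 and the feruloyl transferases of suberin, but also the P450 86A8 gene mentioned above. Other single rises were a dirigent-type disease resistance response protein (MD14G1116800), at 2.96, 1.91 and 2.7 FPKM against 5.63, 4.05 and 9.67 FPKM, and an N-acetylserotonin O-methyltransferase (MD09G1089800), at 6.51, 5.3 and 4.44 FPKM against 17.67, 7.85 and 19.3 FPKM. The first call was lost without any one of CK1-1, CK1-2, CK1-3, T1-1 or T1-3 (adjusted p up to 0.173) and the second without any one of 9 of the 18 libraries (adjusted p up to 0.168).

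Photosynthesis and light signalling showed no called change after 10 days without light. None of 11 photosynthesis genes was called by limma (0 also at an unadjusted p under 0.05), with a median of -0.04, and none of 17 genes of carbon fixation and photorespiration was (1 at an unadjusted p under 0.05), with a median of -0.16. A chlorophyll a-b binding protein 151 gene (MD09G1122500) had 92.21, 106.0 and 83.64 FPKM in CK1 and 90.99, 104.0 and 79.53 FPKM in T1. More abundant members varied more between the T1 libraries. A Rubisco small chain gene (MD17G1244400) had 1991, 1848 and 2444 FPKM in CK1 and 1973, 3162 and 993.7 FPKM in T1. A photosystem II 10 kDa gene (MD10G1198300) had 153.8, 80.41 and 122.6 FPKM against 116.8, 169.0 and 68.1 FPKM. None of the 6 genes of light signalling and the clock was called by limma (0 at an unadjusted p under 0.05), among them HY5-like (MD16G1132200), the factor that promotes light responses, at 9.77, 3.46 and 8.23 FPKM against 5.9, 6.99 and 4.83 FPKM. The binding protein gene was named after its values were seen. These lists are what remained of larger pathways after the authors' selection, and a p that misses the threshold does not show that levels were equal.

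**Figure D3:**
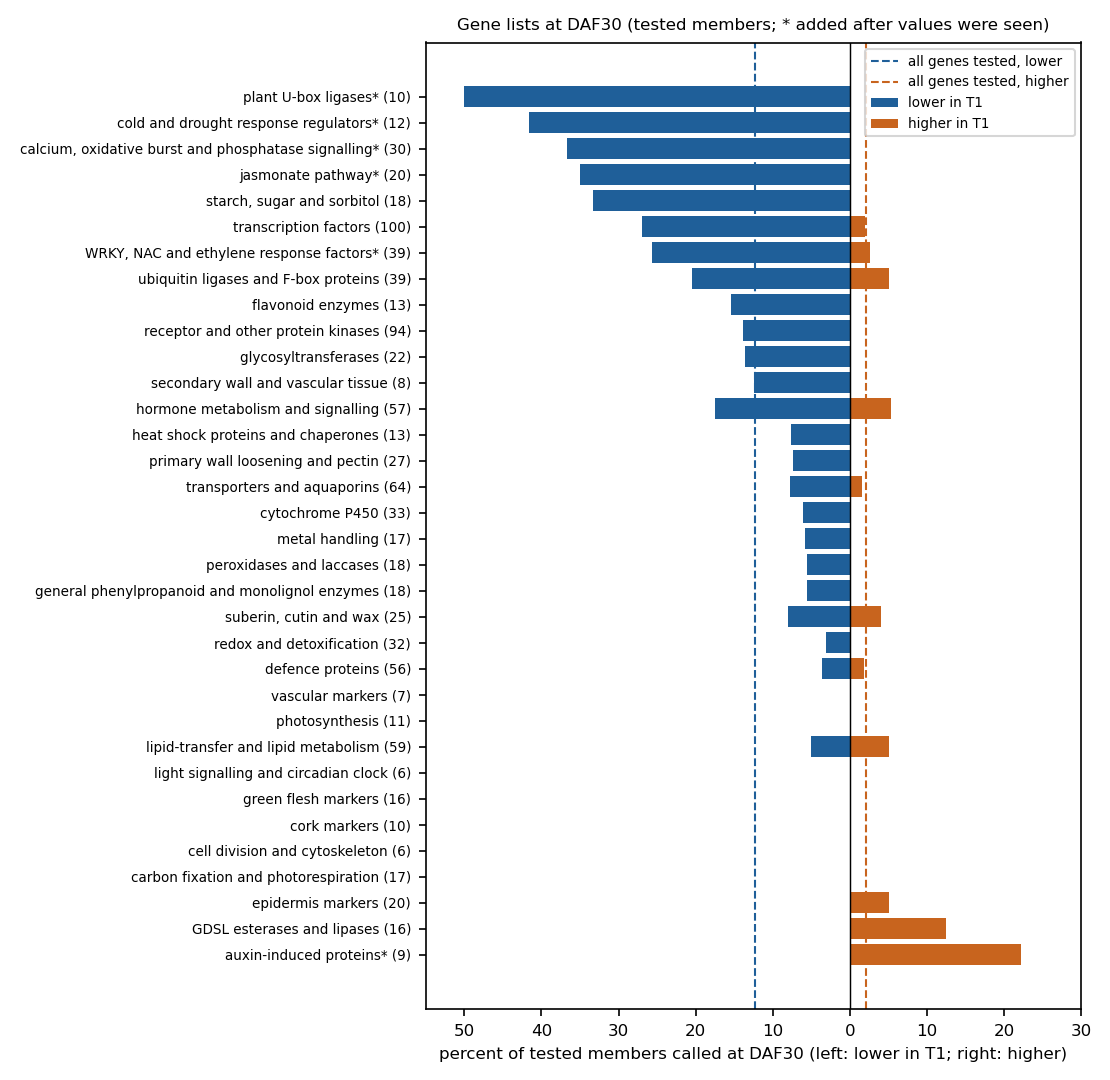
Share of the tested members of each gene list with at least 5 such members that were called lower (blue, to the left) or higher (orange, to the right) in T1, with the number tested in parentheses and the shares over all 1399 genes as dashed lines (12.4% lower, 2.07% higher). Lists with an asterisk were added after values were seen. Signalling lists and sugar metabolism extend past the dashed line on the left, and photosynthesis, carbon fixation and the vascular, cork and green flesh markers have no bar.

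The differences between libraries of a group were large beside the difference between groups. The CK1 libraries agreed in lying above T1 for 168 of the 173 falls, but CK1-1 was highest in 101 of them, CK1-3 in 41 and CK1-2 in 31, and T1-2 was lowest in 101, T1-3 in 56 and T1-1 in 16. Without CK1-1, 95 genes were called (78 lower, 17 higher), and 77 of those falls and 14 of those rises were among the original calls. Without T1-1, 132 genes were called, without T1-2, 137, and without T1-3, 127. With CK1-1 and T1-2 both left out, a choice made after the data were seen, 64 genes were called, 41 lower and 23 higher. Each of the 202 genes kept its sign in every one of these fits. That is weak support, since the genes were called on mostly the same libraries. Among the calls, 60 of the 173 falls and 8 of the 29 rises stayed called whichever of the 18 libraries was left out.

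**Figure D4:**
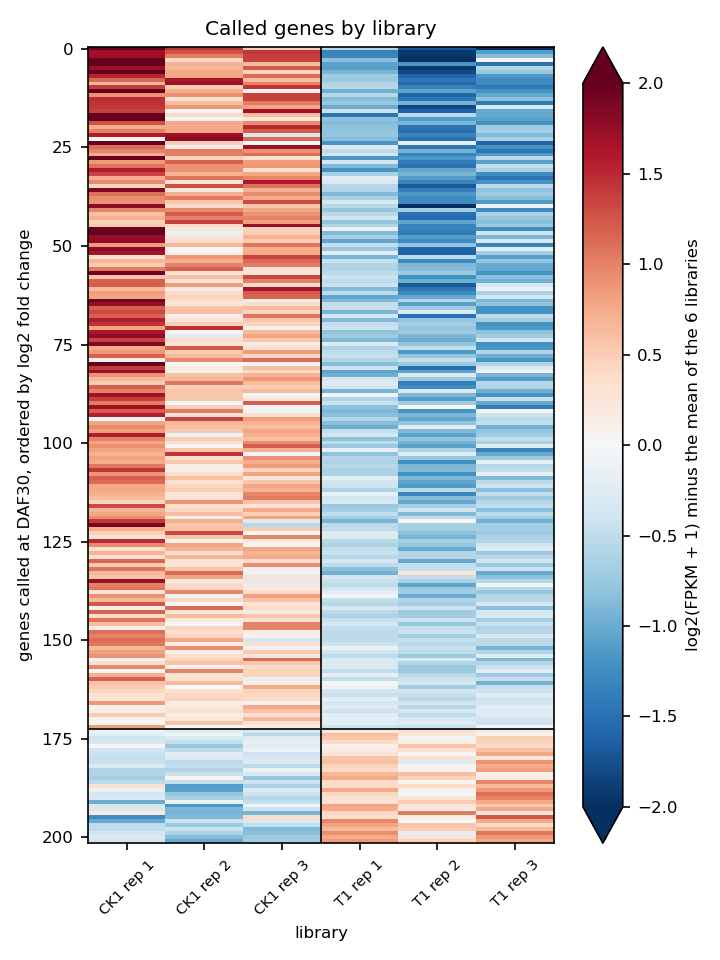
Level of the 202 called genes (rows, ordered by fold change) in each of the 6 DAF30 libraries (columns), as log2(FPKM + 1) minus the mean of the 6, in red above and in blue below that mean. In the upper block of 173 falls, CK1 replicate 1 is highest for 101 genes and T1 replicate 2 lowest for 101, and the lower block of 29 rises shows the opposite direction.

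Some of the falls came as pairs or neighbours. Among the 133 falls with an informative description, 40 shared theirs (disregarding a final "-like") with another fall, in 19 sets, and 33 of the 168 falls placed on chromosomes lay within 50 kb of another fall. Of the 27 rises placed on chromosomes none lay so close to another rise, and 2 of 17 shared a description. How often this holds over all genes tested was not computed. Apple descends from a genome duplication, so such pairs are often duplicate copies. The NAC 83 genes on chromosomes 17 and 9 show this, as each has a glycerophosphodiester phosphodiesterase GDPD1 gene beside it. NAC 83 on chromosome 9 (MD09G1006400, 470176 to 471943) had 216.2, 68.76 and 96.89 FPKM in CK1 and 38.87, 22.02 and 33.25 FPKM in T1, a higher level than its copy on chromosome 17, and its call was lost without CK1-1 or T1-2 (adjusted p up to 0.0900). The neighbouring GDPD1 genes, named after their values were seen, had log2 fold changes of -1.34 (MD17G1010400) and -0.99 (MD09G1006500), with calls lost without CK1-1 (adjusted p = 0.0699 and 0.12), T1-3 and, for the second, CK1-2, T1-2 or T3-1. Of the falls, 19 had models that overlap another gene of the table, and near-identical copies could share reads in the authors' counting, so that the 202 calls are fewer independent events than their number.

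The genes called lower at DAF30 were followed to the later stages. Since they were chosen for a fall in the DAF30 libraries, a weaker median later and a high CK1 level follow in part from that choice. The median gene among the 173 had 12.3 FPKM in CK1 and 3.46 FPKM in T1, then 5.47 in CK2 and 2.42 in T2, and 0.79 in CK3 and 0.76 in T3. The exposed skin at DAF30 held the highest of the 6 group means for 163 of the 173 genes, against 338 of all 1399. The libraries of both later stages entered the authors' selection of the table and the shared estimate of the spread. Counts at those stages are therefore no independent check. In the DAF60 libraries, 83 of the 173 were called lower in T (48.0%, where 61.9% of all genes were) and none was called higher, with a median log2 fold change of -0.79. At DAF150, 4 were called lower (2.31%, where 31.5% of all genes were) and 2 higher, with a median of -0.03. The 4 are chalcone synthase and polyketide synthase 5, whose models overlap, and the uncharacterized MD07G1233600 and MD03G1160300. The 2 that turned are the Myb-like MD08G1107400, at -1.43 at DAF30 and 1.13 at DAF150, and an AP2 domain factor (MD15G1193700), at -1.63 and 1.16. The Myb-like gene had a mean of 122.1 FPKM in CK1 but only 0.80 FPKM in CK3 and 2.70 FPKM in T3. MD03G1160300 and MD15G1193700 were named after their values were seen, and their DAF30 calls were lost without any one of 7 and 3 of the 18 libraries (adjusted p up to 0.151 and 0.0766).

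A direct test of the difference between stages was made in the same model. The bagging effect at DAF150 was more positive than at DAF30 for 87 of the 173 genes (13.4% over all 1399) and more negative for none (21.1% over all, 34.5% in either direction). At DAF60 it was more positive for 25 of the 173 (6.15% over all) and more negative for 1 (37.2% over all, 43.3% in either direction), the MSP1-like gene MD07G1139300, named after its values were seen, whose DAF30 call was lost without any one of 14 of the 18 libraries (adjusted p up to 0.203). These counts are a description, since the genes were called on the DAF30 libraries that also enter the difference. The median level of the 173 genes at DAF150 was 0.79 FPKM in CK3 and 0.76 FPKM in T3. At such levels the added 1 holds log2 differences near 0. The first P450 94C1-like gene was at -3.18 at DAF30 and at -0.09 at DAF60, a difference of 3.09 (limma, adjusted p = 0.011). Its mean level was 36.96 FPKM in CK1 but only 2.09 FPKM in CK2 and 2.25 FPKM in T2. PUB23-like MD12G1040900 kept its fall at DAF60 (-1.62, adjusted p = 0.00088) and lay at 0.35 at DAF150.

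The 29 rises were followed in the same way. Their median gene had 1.81 FPKM in CK1 and 3.92 FPKM in T1, then 0.83 in CK2 and 1.66 in T2, and 0.05 in CK3 and 0.15 in T3. At such low levels the added 1 holds log2(FPKM + 1) differences near 0 even where FPKM ratios stay large. Their median log2 fold change went from 0.96 to 0.51 at DAF60 and 0.03 at DAF150, and 13 were called higher at DAF60 (9.51% over all genes) and 5 at DAF150 (12.6% over all genes), with none lower. The 5 were RHA2A-like MD01G1228600, WIN1-like, the O-methyltransferase, the dirigent-type protein and the uncharacterized MD02G1064200, which had 8.95, 17.79 and 13.23 FPKM in CK1 and 23.24, 27.6 and 32.47 FPKM in T1 and whose DAF30 call was lost without CK1-1, CK1-3 or any T1 library (adjusted p up to 0.177). The fold change of WIN1-like was 1.01 on the log2 scale at the first stage, 0.74 at DAF60 (adjusted p = 0.054) and 1.17 at DAF150 (adjusted p = 0.0078). The bagging effect at DAF150 was more negative than at DAF30 for 10 of the 29 (21.1% over all 1399 genes), HOTHEAD and At5g55050-like among them.

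**Figure D5:**
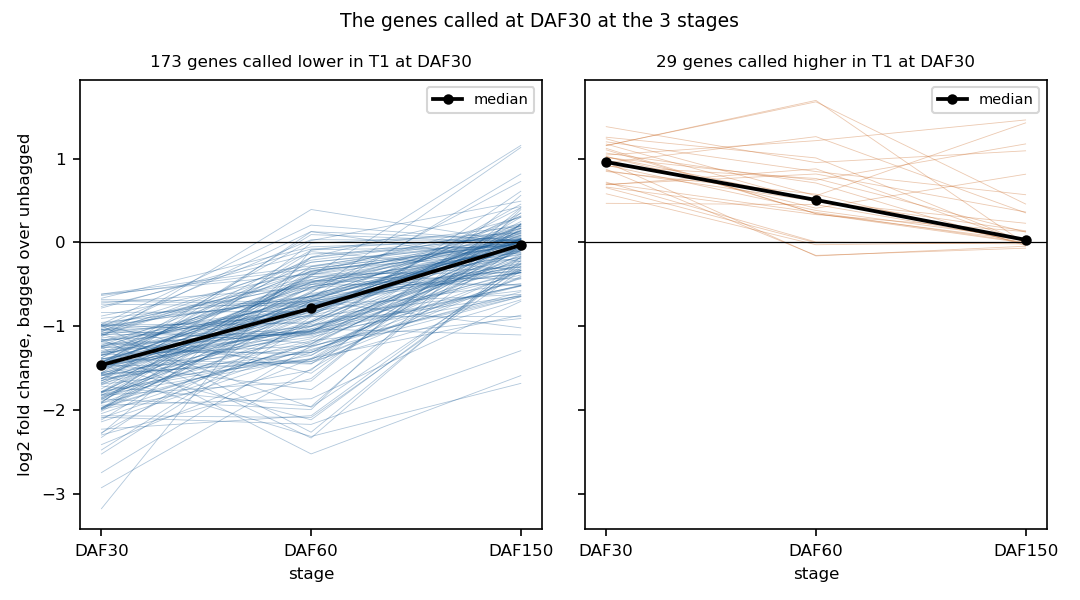
Log2 fold change of bagged over unbagged skin at DAF30, DAF60 and DAF150 for the 173 genes called lower (left) and the 29 called higher (right) at DAF30, 1 line per gene, with the median in black. The median of the falls runs from -1.46 to -0.79 and -0.03, and that of the rises from 0.96 to 0.51 and 0.03.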

How the data were processed

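Fruit skin of 18 samples in 6 groups was measured by RNA-seq. The authors amplified poly(A) RNA to full-length cDNA, read 100 bp on the BGISEQ-500 platform, and mapped the reads with Bowtie2 to the GDDH13 v1.1 genome and genes. They deposited FPKM per gene and library, rounded to 2 decimals. No source used here names the counting tool or its use of strand. Sequencing output per sample, which the paper's supplement lists, was not used here. Deposited columns of log2 ratios and p- or q-values hold the authors' own comparisons and served only to establish that all 2856 genes had passed their thresholds (fold of at least 2 and q-value of at most 0.001). All per-sample columns were matched (0 were not). Descriptions are best matches, some to other species.

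Here, log2(FPKM + 1) of the 1399 genes with FPKM of at least 1 in at least 3 of 18 libraries was fitted with limma 3.58.1 (statmod, R 4.3.3) in a model of 6 groups (12 residual degrees of freedom, trend and robust moderation, two-sided), T1 was compared with CK1, and p-values were adjusted by Benjamini-Hochberg over the genes tested. The model treats all libraries as independent. The script was tested on simulated data. Figures were drawn with matplotlib.

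The members and lists were chosen with earlier results of these data known. Of 37 keyword lists, 6 patterns were corrected after wrong matches were seen and 6 lists were added after values were seen. Named genes are the 15 largest rises and falls (13 rises qualified) among called, described genes without overlap and with a mean of at least 5 FPKM, up to 4 called members per direction and the 2 most abundant of each list, genes of the paper's pathway tables where called, and the 2 uncharacterized genes that changed most each way. Alternatives were other pseudocounts, filters, scalings, moderation, weights and fits without each library.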

Additional observations from a re-analysis of the deposited data

Results flagged for a closer look

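The bagging effect differed between stages, by the test of the difference itself in limma, for 15 of the 28 leading genes. These differences are given in log2 units as the later effect minus that at DAF30. The genes were chosen for a large change at DAF30, and the DAF30 libraries enter each difference. Between DAF60 and DAF30 the effect differed by 3.09 for the P450 94C1-like gene MD11G1171100, by 2.10 for the lectin receptor kinase MD12G1147700, by 1.63 for NAC 83-like MD17G1010300 and by -1.03 for the uncharacterized MD17G1181600, a rise at DAF30 that was -0.16 at DAF60. In that order, their means were 36.96, 15.97, 13.03 and 6.86 FPKM in CK1, but 2.09, 2.05, 2.58 and 1.61 FPKM in CK2.

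Between DAF150 and DAF30 the difference was positive for 12 of the leading falls. Their levels at DAF150 were low in both groups, for example 0.033 FPKM in CK3 and 0.093 in T3 for MD17G1010300, 0.12 and 0.01 for MD09G1267600 and 0.34 and 0.12 for MD10G1296300, where the added 1 holds the log2 difference near 0 whatever the ratio. These differences therefore do not separate a lost bagging effect from lost expression. It was 3.12 for MD11G1171100, 2.86 and 2.77 for the cupredoxin-like MD17G1210900 and MD17G1211200, 2.84 for CRF4 (MD07G1284200), 2.73 for EXO70A1-like MD12G1133300, 2.71 for MD12G1147700, 2.65 for PUB23-like MD12G1040900, 2.44 for U-box 21-like MD13G1017300, 2.41 for MD17G1010300, 2.00 for DC-8-like MD09G1267600, 1.97 for CBSX5-like MD10G1296300 and 1.74 for LURP-one-related 8 (MD04G1180200). For 2 of the leading rises it was negative, -1.10 for HOTHEAD (MD09G1193200) and -1.08 for GDSL At5g55050-like (MD03G1198800).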

How the results depend on the processing

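The number of genes called moved by more than 1.5 times under several settings, and all 202 genes kept their sign except that 5 were outside the filter on DAF30 libraries. The genes had been called for their change in largely the same values, so their signs had little room to turn. The counts below are of all genes called, of those with a fold of at least 2, of list members and of named genes still called, which were 202, 166, 100 and 79. With only the 6 DAF30 libraries in the fit they were 84, 82, 48 and 47. With a pseudocount of 0.1 they were 97, 97, 51 and 48. Quantile normalization gave 102, 73, 46 and 40. Array weights gave 327 genes and 162 list members. With CK1-1 and T1-2 both left out, chosen after the data were seen, they were 64, 56, 34 and 29. Leaving out 1 library in turn gave 95 to 249 genes, 78 to 191 with a fold of at least 2, 49 to 127 list members and 43 to 79 named genes. The median log2 fold change was -0.12 over all 1399 genes, and -0.335 with the filter on the DAF30 libraries and 0.14 after median centring. It was -0.18 to -0.066 with 1 library left out. The differences between stages were called for 845 genes, and for 701 to 873 with 1 library left out.

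Whether the replicate numbers pair the samples is not stated. The deviations of same-numbered CK1 and T1 libraries correlated at 0.018, 0.128 and 0.11. Pairs of unlike number were not computed beside them, so these values cannot settle whether the samples were paired. With the replicate block 204 genes were called, and 164 of the 173 falls and 28 of the 29 rises were kept. The replicate block with only the 6 libraries left 2 genes, 2 with a fold of at least 2, 1 list member and 2 named genes (369 genes at an unadjusted p under 0.05). The fit of the 6 libraries with the block has fewer residual degrees of freedom than that of all 18. FPKM values do not carry the read counts that set the error of low values.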

Other observations

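Some genes of the jasmonate, calcium and GDSL groups were not called at DAF30 although all CK1 libraries lay above all T1 libraries (22.9% of all genes tested did). A TIFY 9-like gene (MD16G1127400) had 463.0, 261.7 and 254.1 FPKM in CK1 and 85.23, 192.2 and 122.9 FPKM in T1 (limma, adjusted p = 0.070), and a lipoxygenase gene (MD17G1167100) had 438.6, 166.7 and 283.9 FPKM against 139.7, 90.38 and 140.3 FPKM (adjusted p = 0.092). A plasma membrane calcium ATPase 2 gene (MD15G1296400) had 82.12, 54.31 and 56.72 FPKM against 36.38, 28.73 and 24.0 FPKM (adjusted p = 0.074). GDSL esterase At5g55050-like MD11G1214800 went against the called rise of its namesake MD03G1198800, with 18.42, 27.45 and 8.28 FPKM in CK1 and 4.32, 6.69 and 4.32 FPKM in T1 (adjusted p = 0.052). Of the 173 falls, 32 are described as uncharacterized and 8 have no description, and of the 29 rises 9 and 3. The uncharacterized MD15G1060000 rose from 1.27, 0.93 and 1.3 FPKM to 4.65, 3.8 and 3.25 FPKM (adjusted p = 0.0047).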
